A study of Rattus norvegicus with 6 samples.

Results

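The genes that cells switch on to divide were followed in rat liver around the onset of spontaneous diabetes. A list of 48 cell cycle genes was used, and 45 of them were measured, by 63 of the 31042 probe sets on the array. A probe set was taken when its only gene symbol in the annotation of the array was on the list. Cdc6 and Tpx2 had no such probe set, and both probe sets of Rrm2 carried several symbols and stayed unnamed. The members were kept in 3 roles: cyclins and kinases of G1 and of the G1/S transition (6 of 6 measured), genes of S phase (10 of 12) and genes of G2 and mitosis (29 of 30).

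Liver RNA was hybridised to 6 arrays of the Affymetrix RG230 2.0 type, 2 for each of 3 groups. Post-hyperglycemia livers came from BBDR.lyp/lyp rats of 55 days, within 5 days, shortly after blood glucose rose. Pre-hyperglycemia livers came from BBDR.lyp/lyp rats of 50 days, within 5 days, which were not yet hyperglycemic. The third group were BBDR.+/+ rats of 55 days, within 5 days, which do not become diabetic unless induced. All groups share the BBDR (BioBreeding diabetes resistant) background. BBDR.lyp/lyp rats are congenic: they are homozygous for a region of the diabetes-prone BB rat that holds the lyp mutation of Gimap5, so that they lack most T cells and become diabetic, and other alleles of that region travel with it. Pre-hyperglycemia and BBDR.+/+ livers thus differ in genotype and in age, which cannot be told apart here. The sex of the rats behind the arrays is not given in the sources used here. Nothing in the labels shows that the 2 arrays of a group were separate rats, so p-values measure only the spread between these samples. The paper describes liver taken at several ages, before and after onset. The labels do not show whether pre- and post-hyperglycemia livers came from the same rats. All groups were fitted as independent, so any such pairing is ignored.

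A dividing cell passes through G1, copies its DNA in S phase, and then assembles a spindle and splits in G2 and mitosis. D-type cyclins with Cdk4, and E-type cyclins with Cdk2, drive entry into S phase. The Mcm2 to Mcm7 helicase opens the DNA, the Pcna clamp holds the polymerase, and ribonucleotide reductase, thymidylate synthase and thymidine kinase make the nucleotides. Cdk1 with cyclins A and B drives mitosis, after which the anaphase promoting complex destroys the cyclins and the cell is pinched apart in cytokinesis. Hepatocytes of an adult liver are mostly quiescent, and they re-enter the cycle after loss of tissue. In mammalian cells the S phase genes are mainly controlled by E2F factors. Genes of G2 and mitosis are mainly controlled by the MuvB complex with B-MYB and FOXM1, often through a TTTGAA element next to CCAAT boxes that NF-Y binds.

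Promoter sequences were available for 35 of the 45 genes (RefSeq, GRCr8, from 250 bases before to 50 bases after the start of the gene). Those of Mki67, Ect2, Cdk1 and Mcm6 are shown, because these were the 4 genes with the largest variation among the groups for which a promoter was at hand, and because they set 3 mitotic promoters beside 1 of S phase. Each run is 260 bases long, 5′ to 3′ on the strand of the gene, and ends 10 bases after the start. Capitals mark matches to the searched motifs on either strand, so that ATTGG is CCAAT on the other strand.
Mki67, chr1:199952584-199952843, minus strand: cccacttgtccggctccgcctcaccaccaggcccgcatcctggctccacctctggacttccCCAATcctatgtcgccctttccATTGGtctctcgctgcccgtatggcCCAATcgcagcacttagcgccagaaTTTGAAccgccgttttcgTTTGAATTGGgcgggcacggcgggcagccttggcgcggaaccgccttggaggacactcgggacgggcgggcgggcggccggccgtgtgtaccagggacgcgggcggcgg
Ect2, chr2:111966617-111966876, minus strand: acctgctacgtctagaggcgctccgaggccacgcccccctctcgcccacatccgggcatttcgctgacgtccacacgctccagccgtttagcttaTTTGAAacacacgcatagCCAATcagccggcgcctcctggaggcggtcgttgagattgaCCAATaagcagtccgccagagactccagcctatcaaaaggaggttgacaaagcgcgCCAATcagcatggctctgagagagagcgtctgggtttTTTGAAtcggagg
Cdk1, chr20:19265043-19265302, plus strand: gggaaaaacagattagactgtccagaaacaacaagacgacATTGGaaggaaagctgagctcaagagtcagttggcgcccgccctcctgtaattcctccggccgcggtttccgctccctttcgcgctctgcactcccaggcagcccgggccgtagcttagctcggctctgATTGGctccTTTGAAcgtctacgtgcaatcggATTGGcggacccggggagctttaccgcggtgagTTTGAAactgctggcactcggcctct
Mcm6, chr13:42404343-42404602, minus strand: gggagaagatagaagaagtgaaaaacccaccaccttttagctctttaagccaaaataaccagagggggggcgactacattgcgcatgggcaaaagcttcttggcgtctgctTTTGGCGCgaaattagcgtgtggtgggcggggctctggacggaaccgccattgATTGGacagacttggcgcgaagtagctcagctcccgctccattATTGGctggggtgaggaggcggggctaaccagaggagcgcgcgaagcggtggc

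Mki67 holds 4 CCAAT and 2 TTTGAA matches, and 1 of each overlap by a base in the run TTTGAATTGG. In Cdk1 and in Ect2 there are 3 CCAAT and 2 TTTGAA matches each, and the last TTTGAA begins 16 bases before the start in Cdk1 and 3 bases before it in Ect2. Mcm6 has 2 CCAAT matches and no TTTGAA, and 139 bases before its start it has TTTGGCGC, 1 of the 3 E2F-type motifs searched (TTTCCCGC, TTTGGCGC and TTTGCCGC). Over the full windows, TTTGAA was present in 14 of 23 promoters of G2 and mitosis genes and in 1 of 9 of S phase genes, beside 18.1% of all 27457 promoters. The 3 searched E2F-type motifs showed the opposite split. At least 1 was present in 0 of 23 promoters of G2 and mitosis genes, beside 1.96% of all promoters. Among S phase genes it was 5 of 9 (Mcm3, Mcm5, Mcm6, Mcm7 and Tyms). The related form TTTCGCGC was not searched, and it occurs unmarked in the Cdk1 run above. These E2F counts therefore hold for the 3 searched forms only. CCAAT was found in 18 of 23 and in 6 of 9, beside 37.7% of all, and at least 2 copies in 13 of 23 and in 4 of 9, beside 11.5% of all. These are counts of letters, and a match was not tested as a binding site.

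Many mitotic genes and a few of S phase varied among the groups, and most of these had their highest mean before hyperglycemia and their lowest in BBDR.+/+ livers. Tested over the 3 groups with the moderated F of limma, 19 of 45 genes varied at an adjusted p under 0.05, namely 16 of 29 of G2 and mitosis, 3 of 10 of S phase and 0 of 6 of G1. Of all 14217 named genes 3.3% varied, and 4.65% of all probe sets. A gene is represented here and below by its brightest probe set, the one with the highest mean over the arrays, unless another is named. Of the 19 varying genes 17 had their highest mean in pre-hyperglycemia livers and 18 their lowest in BBDR.+/+ livers. Of the 469 named genes that varied, 157 had their highest mean in pre-hyperglycemia livers and 233 their lowest in BBDR.+/+ livers. Across all 45 genes, 27 followed the order pre-hyperglycemia, post-hyperglycemia, BBDR.+/+ from high to low. The share of all named genes with this order was not counted. The post-hyperglycemia mean was the lowest in 10 genes, among them Ccnb1, Cdc25b and Plk1, and the highest in 8 (Ccne2, Cdk4, Mcm4, Tyms, Mki67, Cenpf, Kif2c and Kif23). Of all 14217 named genes it was the lowest in 4159 and the highest in 5964.

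Each array is summarised by the median, over the genes of a role, of the log2 signal minus the mean of all arrays. For G2 and mitosis this median was 0.01 and -0.04 in post-hyperglycemia livers, 0.31 and 0.29 in pre-hyperglycemia livers and -0.25 and -0.24 in BBDR.+/+ livers. For S phase it was 0.05 and 0.03 in post-hyperglycemia livers, 0.17 and 0.11 in pre-hyperglycemia livers and -0.12 and -0.18 in BBDR.+/+ livers. The arrays of the 3 groups did not overlap in either role, and the groups lay further apart in G2 and mitosis. For the G1 genes it was -0.01 and -0.03 in post-hyperglycemia livers, 0.02 and 0.03 in pre-hyperglycemia livers and -0.12 and 0.01 in BBDR.+/+ livers, with BBDR.+/+ replicate 2 between the others. Over all named genes the array medians ran only between -0.03 and 0.02.

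**Figure D1:**
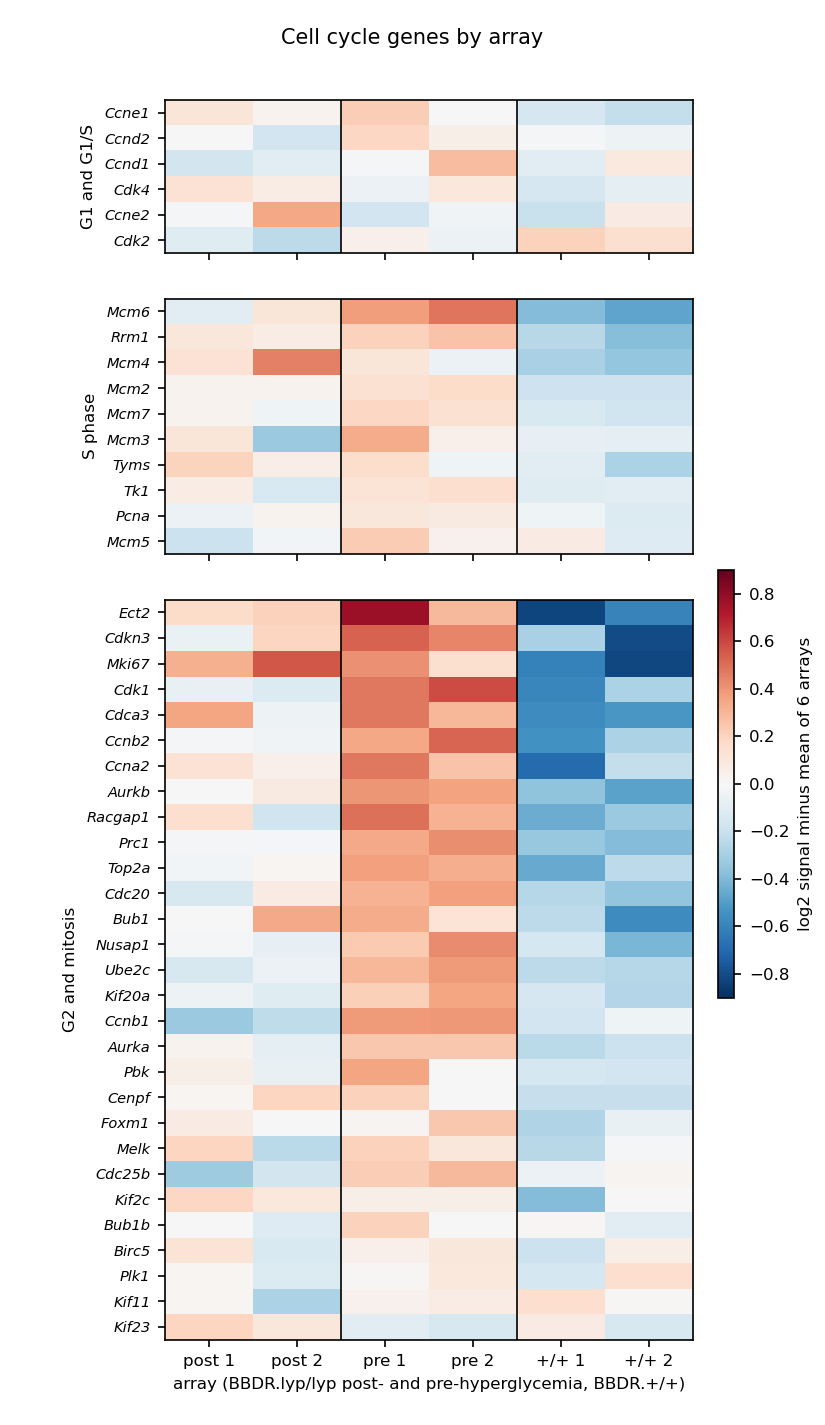
Log2 signal of the 45 cell cycle genes (rows, brightest probe set, grouped by role and ordered by the pre-hyperglycemia minus BBDR.+/+ difference) on the 6 arrays (columns), as the difference from the mean of that gene over all arrays. Red marks values above that mean and blue values below it: most rows of G2 and mitosis are red in pre-hyperglycemia arrays and blue in BBDR.+/+ arrays, with post-hyperglycemia arrays near 0.

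The comparison of pre-hyperglycemia with BBDR.+/+ livers asks what the genotype (with the age difference) did before glucose rose. In every comparison a positive difference means a higher signal in the group named first, from the deposited signals and the labels. For the inhibitor p21 (Cdkn1a) the study tabulates negative fold changes in post-hyperglycemia livers, where the differences here are positive. Its other tabulated genes are not compared here. In this comparison 15 of 45 genes rose and 0 fell, where 0.802% of all named genes passed the test and 0.584% passed it as higher. By role, 13 of 29 genes of G2 and mitosis rose, 2 of 10 of S phase and 0 of 6 of G1. Over probe sets the count was 18 of 63, all higher, beside 0.718% of all probe sets (0.464% as higher). The median difference was 0.59 for G2 and mitosis, 0.29 for S phase and 0.14 for G1, on the log2 scale, beside 0.02 for all named genes. At an unadjusted limma p under 0.05, 29 genes were higher and 0 lower, beside 1205 higher and 529 lower of all 14217 named genes. Both pre-hyperglycemia arrays lay above both BBDR.+/+ arrays for 36 of 45 genes, beside 28.3% of all named genes.

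Ect2 had the largest difference of the 45 genes. All differences are on the log2 scale, and where no pair of groups is named here and in the next paragraphs they are pre-hyperglycemia minus BBDR.+/+. Ect2, which activates RhoA at the cleavage furrow, had log2 signals of 5.73 and 5.78 in post-hyperglycemia livers, 6.34 and 5.87 in pre-hyperglycemia livers and 4.74 and 4.97 in BBDR.+/+ livers. Its difference was 1.25 ± 0.15 (SE, 2.38-fold, limma adjusted p = 0.00504). Both BBDR.+/+ arrays lay below all others. Racgap1, a subunit of the centralspindlin complex that recruits Ect2, read 5.44 and 5.10 in post-hyperglycemia livers, 5.78 and 5.60 in pre-hyperglycemia livers and 4.84 and 4.95 in BBDR.+/+ livers, and the pre-hyperglycemia difference was 0.80 ± 0.13 (SE, 1.74-fold, limma adjusted p = 0.0248). The arrays of each group stayed apart from those of the others. Its dimmer probe set read 4.90 and 4.96 in post-hyperglycemia livers, 5.17 and 5.15 in pre-hyperglycemia livers and 5.07 and 4.91 in BBDR.+/+ livers, with a difference of 0.17 that did not pass (adjusted p = 0.594). Prc1, which bundles the microtubules of the spindle midzone, read 6.60 and 6.59 in post-hyperglycemia livers, 6.95 and 7.03 in pre-hyperglycemia livers and 6.27 and 6.21 in BBDR.+/+ livers. It differed by 0.75 ± 0.10 (SE, 1.68-fold, limma adjusted p = 0.00808) before hyperglycemia, with little spread within any group. Aurkb, the kinase of the chromosomal passenger complex, read 5.18 and 5.26 in post-hyperglycemia livers, 5.57 and 5.54 in pre-hyperglycemia livers and 4.82 and 4.69 in BBDR.+/+ livers, with a difference of 0.80 ± 0.10 (SE, 1.74-fold, limma adjusted p = 0.00703). Its groups did not overlap. Survivin (Birc5), which belongs to the same complex, differed by 0.14 (95% interval -0.14 to 0.41, adjusted p = 0.76), and Kif23, the motor subunit of centralspindlin, by -0.08 (95% interval -0.33 to 0.16, adjusted p = 0.847). Neither of these passed the test.

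The mitotic kinase Cdk1 rose before hyperglycemia, as did its cyclins Ccnb2 and Ccna2, while its cyclin Ccnb1 missed the threshold. Cdk1 had log2 signals of 6.35 and 6.30 in post-hyperglycemia livers, 6.90 and 7.01 in pre-hyperglycemia livers and 5.84 and 6.14 in BBDR.+/+ livers. The pre-hyperglycemia minus BBDR.+/+ difference was 0.97 ± 0.12 (SE, 1.96-fold, limma adjusted p = 0.0056), and post-hyperglycemia livers lay between the other groups. Ccnb2, a B-type cyclin, read 6.36 and 6.34 in post-hyperglycemia livers, 6.72 and 6.90 in pre-hyperglycemia livers and 5.83 and 6.09 in BBDR.+/+ livers, with a difference of 0.85 ± 0.12 (SE, 1.81-fold, limma adjusted p = 0.0103). The same order of groups held. Ccna2, cyclin A2 of S and G2, read 4.26 and 4.17 in post-hyperglycemia livers, 4.60 and 4.38 in pre-hyperglycemia livers and 3.43 and 3.91 in BBDR.+/+ livers, with 0.82 ± 0.15 (SE, 1.77-fold, limma adjusted p = 0.0429), and its 2 BBDR.+/+ arrays lay further apart than those of any other group. For Ccnb1 the difference was 0.49 ± 0.11 (SE, 1.4-fold, limma adjusted p = 0.073) by its brighter and 0.71 by its other probe set (adjusted p = 0.0679). Cdkn3, a phosphatase that acts on the cyclin-dependent kinases, read 6.38 and 6.63 in post-hyperglycemia livers, 6.97 and 6.88 in pre-hyperglycemia livers and 6.15 and 5.63 in BBDR.+/+ livers, with 1.03 ± 0.16 (SE, 2.05-fold, limma adjusted p = 0.0167). Its post-hyperglycemia values lay between the other groups, and BBDR.+/+ replicate 2 was the lowest array. Cdca3, an adaptor that helps to destroy the mitotic inhibitor Wee1, read 7.47 and 7.07 in post-hyperglycemia livers, 7.59 and 7.41 in pre-hyperglycemia livers and 6.55 and 6.59 in BBDR.+/+ livers, with 0.93 ± 0.14 (SE, 1.91-fold, limma adjusted p = 0.0138). Post- and pre-hyperglycemia arrays overlapped and both stood above BBDR.+/+.

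Mki67 encodes Ki-67, the proliferation marker that coats mitotic chromosomes, and read 5.57 and 5.81 in post-hyperglycemia livers, 5.67 and 5.40 in pre-hyperglycemia livers and 4.65 and 4.43 in BBDR.+/+ livers. Pre-hyperglycemia livers exceeded BBDR.+/+ by 0.99 ± 0.13 (SE, 1.99-fold, limma adjusted p = 0.00844), and the post-hyperglycemia values overlapped theirs. Top2a, which untangles DNA, read 7.27 and 7.32 in post-hyperglycemia livers, 7.67 and 7.62 in pre-hyperglycemia livers and 6.84 and 7.06 in BBDR.+/+ livers, with 0.69 ± 0.11 (SE, 1.62-fold, limma adjusted p = 0.0198), and its groups did not overlap. Cdc20, an activator of the anaphase promoting complex, read 6.72 and 6.94 in post-hyperglycemia livers, 7.17 and 7.23 in pre-hyperglycemia livers and 6.61 and 6.51 in BBDR.+/+ livers by its brightest probe set, with 0.64 ± 0.11 (SE, 1.56-fold, limma adjusted p = 0.0315). Its other 4 probe sets did not pass, with differences of 0.34, 0.27, -0.03 and -0.07, the brightest of these first (adjusted p from 0.29 to 0.961). Ube2c, the ubiquitin-conjugating enzyme of that complex, read 6.09 and 6.18 in post-hyperglycemia livers, 6.54 and 6.62 in pre-hyperglycemia livers and 6.004 and 5.98 in BBDR.+/+ livers, with 0.59 ± 0.10 (SE, 1.5-fold, limma adjusted p = 0.0315). Post-hyperglycemia values of Ube2c were closer to BBDR.+/+ than to pre-hyperglycemia, and those of Cdc20 lay between the other groups. Of the other genes of G2 and mitosis, Nusap1, a spindle protein, came nearest to the threshold (0.61, adjusted p = 0.051), ahead of Kif20a (0.49, adjusted p = 0.0746) and Aurka (0.46, adjusted p = 0.084). Plk1, another mitotic kinase, differed by 0.06 with a 95% interval of -0.22 to 0.33, and the factor Foxm1 by 0.30 (95% interval 0.04 to 0.56, adjusted p = 0.351). Bub1 differed by 0.63 (adjusted p = 0.108), and Pbk, Cenpf, Melk, Cdc25b, Kif2c and Bub1b lay between 0.15 and 0.34 with adjusted p from 0.313 to 0.68.

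In S phase, all 10 genes had a positive difference between pre-hyperglycemia and BBDR.+/+, beside 56.3% of all named genes, and 2 passed the test. Mcm6, a subunit of the helicase whose promoter is shown above, read 6.37 and 6.57 in post-hyperglycemia livers, 6.83 and 6.94 in pre-hyperglycemia livers and 6.07 and 5.98 in BBDR.+/+ livers. The difference of 0.86 ± 0.11 (SE, 1.82-fold, limma adjusted p = 0.00703) was larger than those of the other helicase subunits measured, which ran from 0.15 for Mcm5 to 0.35 for Mcm4 with adjusted p from 0.19 to 0.696. Rrm1, the large subunit of ribonucleotide reductase, read 7.39 and 7.35 in post-hyperglycemia livers, 7.50 and 7.55 in pre-hyperglycemia livers and 7.04 and 6.90 in BBDR.+/+ livers, with 0.55 ± 0.10 (SE, 1.46-fold, limma adjusted p = 0.0449), and BBDR.+/+ arrays lay below all others. Mcm2 read 6.88 and 6.88 in post-hyperglycemia livers, 6.99 and 7.02 in pre-hyperglycemia livers and 6.66 and 6.67 in BBDR.+/+ livers, without overlap between groups, and differed by 0.34 ± 0.10 (SE, 1.26-fold, limma adjusted p = 0.19). Pcna differed by 0.17, with a 95% interval of -0.05 to 0.40, and Tyms and Tk1 by 0.25 and 0.24 (adjusted p = 0.476 and 0.432).

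Of the G1 genes 0 of 6 passed the test by their brightest probe sets, and 1 was higher without adjustment in limma. Cdk2 read 7.15 and 7.02 in post-hyperglycemia livers, 7.31 and 7.20 in pre-hyperglycemia livers and 7.46 and 7.40 in BBDR.+/+ livers by its brighter probe set, with BBDR.+/+ highest (pre-hyperglycemia difference -0.18, 95% interval -0.41 to 0.06). By its dimmer probe set the difference was 0.11 (limma adjusted p = 0.852). There the pre-hyperglycemia mean was highest, and pre-hyperglycemia and BBDR.+/+ arrays overlapped. Ccne1, cyclin E1, read 6.06 and 5.99 in post-hyperglycemia livers, 6.18 and 5.96 in pre-hyperglycemia livers and 5.81 and 5.74 in BBDR.+/+ livers, with BBDR.+/+ lowest (pre-hyperglycemia difference 0.29, adjusted p = 0.33). Cdk4 read 9.75 and 9.68 in post-hyperglycemia livers, 9.56 and 9.71 in pre-hyperglycemia livers and 9.47 and 9.54 in BBDR.+/+ livers, and post- and pre-hyperglycemia arrays overlapped. Ccnd2 and Ccne2 differed by 0.15 and -0.04 before hyperglycemia (adjusted p = 0.671 and 0.956). Brightest probe set aside, 1 of the 3 probe sets of Ccnd1, cyclin D1, did pass, the second brightest. It read 7.63 and 7.75 in post-hyperglycemia livers, 8.61 and 8.71 in pre-hyperglycemia livers and 7.98 and 8.17 in BBDR.+/+ livers, and the pre-hyperglycemia difference was 0.58 ± 0.11 (SE, 1.5-fold, limma adjusted p = 0.0484). The brightest Ccnd1 probe set read 8.43 and 8.50 in post-hyperglycemia livers, 8.59 and 8.87 in pre-hyperglycemia livers and 8.50 and 8.68 in BBDR.+/+ livers, where pre-hyperglycemia and BBDR.+/+ arrays overlapped and the difference was 0.14 (adjusted p = 0.744).

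Limits of this comparison lie in the arrays. Without BBDR.+/+ replicate 1 only Cdkn3 still passed (1.29), and without BBDR.+/+ replicate 2 only Cdk1 (1.12). Without pre-hyperglycemia replicate 1 or 2, 5 genes passed in each case. The role medians stayed within 0.49 to 0.59 for G2 and mitosis and 0.26 to 0.34 for S phase.

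**Figure D2:**
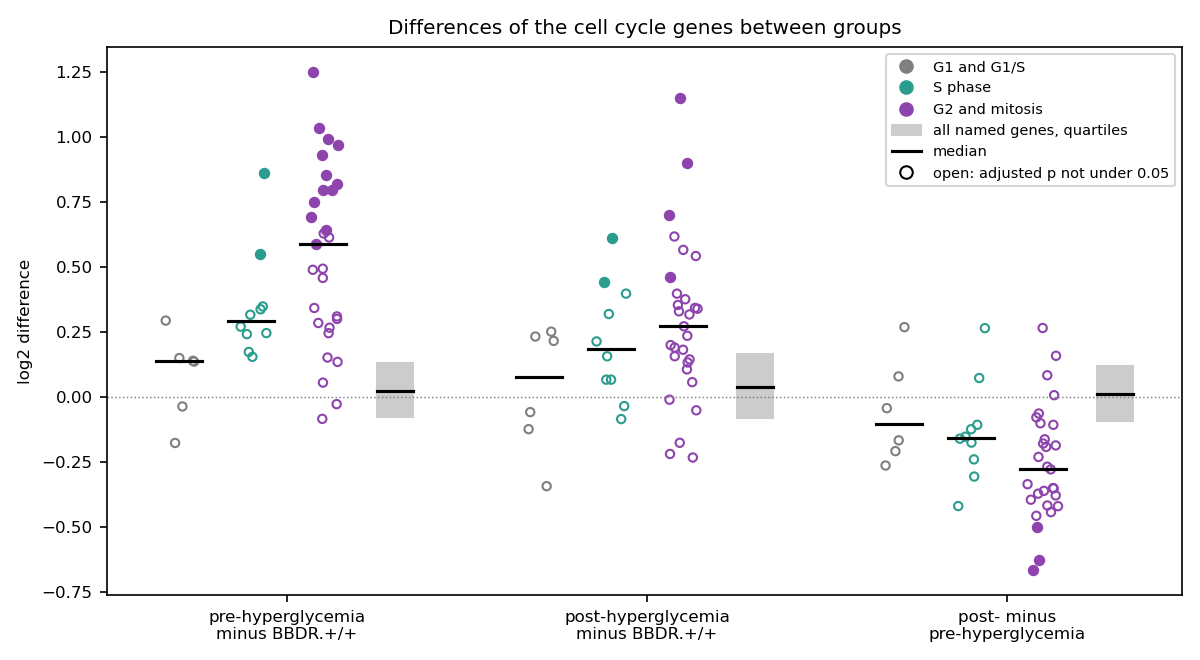
Log2 differences of the 45 cell cycle genes by role in the 3 comparisons. Each point is a gene (brightest probe set), filled where the limma adjusted p was under 0.05. Black lines are medians, and grey boxes span the quartiles of all 14217 named genes. The median of G2 and mitosis lies at 0.59, 0.27 and -0.28 from left to right; the grey boxes show the spread of single genes, not that of a list median.

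After the onset of hyperglycemia fewer division genes passed the test against BBDR.+/+, all of them higher. The comparison of post-hyperglycemia with BBDR.+/+ is matched for age. Its groups differ in genotype and in hyperglycemia, which cannot be told apart here. In it 6 of 45 genes rose and 0 fell, beside 3.52% of all named genes that passed the test and 2.29% that passed it as higher. The 6 were Mki67, Ect2, Cdca3 and Aurkb of G2 and mitosis and Mcm4 and Mcm6 of S phase. Over probe sets the count was 6 of 63, all higher, beside 5.15% of all probe sets (1.89% as higher). The median difference was 0.27 for G2 and mitosis and 0.19 for S phase, beside 0.04 for all named genes. Both post-hyperglycemia arrays lay above both BBDR.+/+ arrays for 30 of 45 genes, beside 32.4% of all named genes. At an unadjusted limma p under 0.05, 20 genes were higher and 1 was lower, beside 1910 higher and 778 lower of all 14217 named genes.

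With the array values given above, the post-hyperglycemia minus BBDR.+/+ difference was 1.15 ± 0.13 (SE, 2.22-fold, limma adjusted p = 0.00125) for Mki67. This was the largest of the 45 genes in this comparison. It was 0.90 ± 0.15 (SE, 1.87-fold, limma adjusted p = 0.00705) for Ect2 and 0.70 ± 0.14 (SE, 1.62-fold, limma adjusted p = 0.0153) for Cdca3. Aurkb differed by 0.46 ± 0.10 (SE, 1.38-fold, limma adjusted p = 0.029) and Mcm6 by 0.44 ± 0.11 (SE, 1.36-fold, limma adjusted p = 0.0471), beside 0.80 and 0.86 before hyperglycemia. For neither did the post- minus pre-hyperglycemia difference itself pass the test (adjusted p = 0.142 and 0.0913). Mcm4, a helicase subunit, had log2 signals of 6.90 and 7.22 in post-hyperglycemia livers, 6.87 and 6.72 in pre-hyperglycemia livers and 6.47 and 6.42 in BBDR.+/+ livers, and differed by 0.61 ± 0.13 (SE, 1.53-fold, limma adjusted p = 0.0191). Its highest array was post-hyperglycemia replicate 2, and all 3 groups stayed apart. Of these 6 genes, 5 had also passed against BBDR.+/+ before hyperglycemia, and Mcm4 had not (0.35, adjusted p = 0.296). Both comparisons share the BBDR.+/+ arrays, so the count of 5 is no separate support. Cdkn3 (0.62, adjusted p = 0.0514), Rrm1 (0.40, adjusted p = 0.0534) and Bub1, a kinase of the spindle checkpoint (0.57, adjusted p = 0.0558), lay just past the threshold. Only the Mki67 call held whichever array was left out. Without BBDR.+/+ replicate 1 or replicate 2, 2 genes passed, and without post-hyperglycemia replicate 2, 3 did.

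Between the BBDR.lyp/lyp groups, post-hyperglycemia livers had less Cdk1, less of its cyclin Ccnb1 and less of its activator Cdc25b. The groups of this comparison share a genotype. They differ in hyperglycemia and, by the labels, in age, which cannot be told apart here. By brightest probe set 3 of 45 genes fell (Ccnb1, Cdk1 and Cdc25b) and 0 rose, beside 1.37% of all named genes that passed the test and 0.668% that passed it as lower. Over probe sets 5 of 63 fell, beside 2.18% of all that passed the test and 1.46% that passed it as lower. The median difference was -0.28 for G2 and mitosis, -0.16 for S phase and -0.10 for G1, beside 0.01 for all named genes. Both post-hyperglycemia arrays lay below both pre-hyperglycemia arrays for 28 of 45 genes, beside 20.5% of all named genes. At an unadjusted limma p under 0.05, 16 genes were lower and 1, Kif23, was higher. Of all 14217 named genes, 838 were lower and 1069 higher by that rule. Each comparison shares a group of arrays with each of the others, so calls of a gene in several are no separate support. Pre-hyperglycemia arrays that read high give a rise against BBDR.+/+ and a fall here at once.

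Ccnb1, the cyclin that partners Cdk1 at entry to mitosis, read 5.79 and 5.90 in post-hyperglycemia livers, 6.51 and 6.52 in pre-hyperglycemia livers and 5.96 and 6.09 in BBDR.+/+ livers by its brighter probe set. The post- minus pre-hyperglycemia difference was -0.67 ± 0.11 (SE, 0.631-fold, limma adjusted p = 0.0113). By the other probe set it read 4.76 and 5.29 in post-hyperglycemia livers, 5.92 and 5.97 in pre-hyperglycemia livers and 5.27 and 5.19 in BBDR.+/+ livers, with -0.92 ± 0.15 (SE, 0.529-fold, limma adjusted p = 0.0131). In both, pre-hyperglycemia arrays stood above all others, and post-hyperglycemia means were the lowest. Cdk1 differed by -0.63 ± 0.12 (SE, 0.647-fold, limma adjusted p = 0.026), from the values above. Cdc25b, a phosphatase that activates Cdk1, read 5.90 and 6.06 in post-hyperglycemia livers, 6.45 and 6.51 in pre-hyperglycemia livers and 6.17 and 6.25 in BBDR.+/+ livers, with -0.50 ± 0.11 (SE, 0.708-fold, limma adjusted p = 0.0396), and its post-hyperglycemia arrays were the lowest of all. The second brightest Ccnd1 probe set fell too, with -0.96 ± 0.11 (SE, 0.513-fold, limma adjusted p = 0.00328), while the other Ccnd1 probe sets differed by -0.26 (adjusted p = 0.357) and -0.32 (adjusted p = 0.149). For Mki67 the post- minus pre-hyperglycemia difference was 0.16, with a 95% interval of -0.14 to 0.45. Of the 5 probe sets, only this Ccnd1 probe set passed whichever array was left out. Without post-hyperglycemia replicate 1 or without pre-hyperglycemia replicate 2 it was the only one, and without post-hyperglycemia replicate 2, 3 passed.

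**Figure D3:**
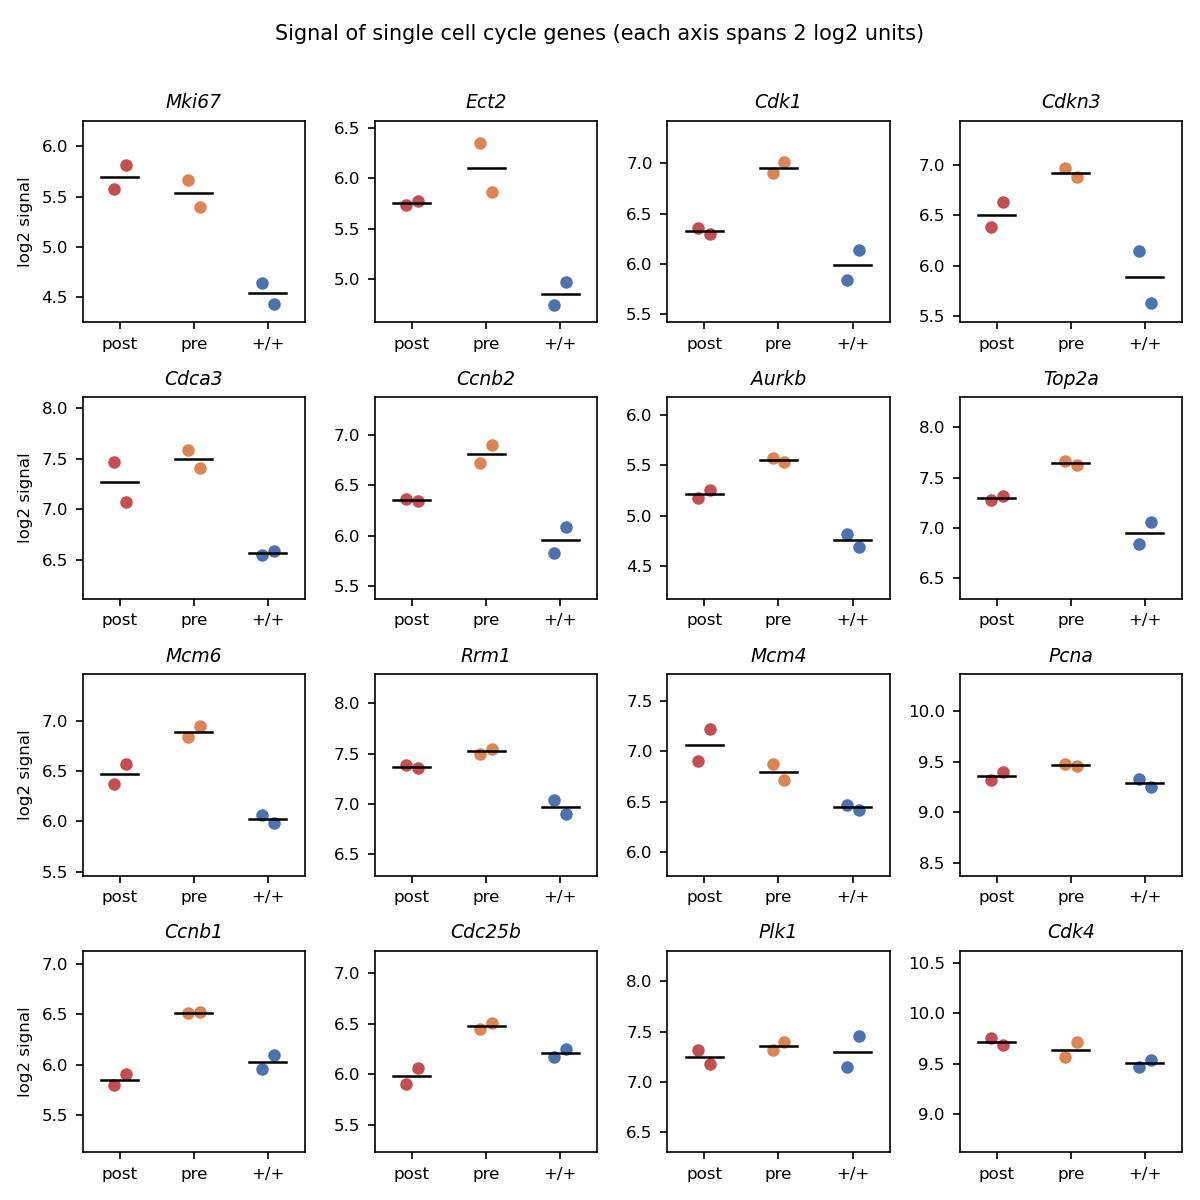
Log2 signal of 16 cell cycle genes on each array (brightest probe set), with post-hyperglycemia at the left, pre-hyperglycemia in the middle and BBDR.+/+ at the right of each panel. Points are arrays and lines are group means, and every axis spans 2 log2 units. Mki67 and Ect2 are lowest in BBDR.+/+, Ccnb1 and Cdc25b are lowest in post-hyperglycemia livers, and Plk1 and Cdk4 differ little.

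Several probe sets of 1 gene did not always move together. Of the 13 genes with more than 1, all probe sets had the same sign in 5 genes for pre-hyperglycemia minus BBDR.+/+, in 9 for post-hyperglycemia minus BBDR.+/+ and in 10 for post- minus pre-hyperglycemia. Kif11, the motor that makes the spindle bipolar, is the clearest case. Its brighter probe set read 5.58 and 5.28 in post-hyperglycemia livers, 5.61 and 5.64 in pre-hyperglycemia livers and 5.72 and 5.58 in BBDR.+/+ livers, with a pre-hyperglycemia difference of -0.03 (adjusted p = 0.962). The dimmer one read 5.04 and 4.95 in post-hyperglycemia livers, 5.39 and 5.89 in pre-hyperglycemia livers and 4.73 and 4.91 in BBDR.+/+ livers, with 0.82 ± 0.15 (SE, 1.76-fold, limma adjusted p = 0.0431). Tk1, thymidine kinase, had 3 probe sets, and only the second brightest passed before hyperglycemia. It read 6.80 and 6.71 in post-hyperglycemia livers, 6.94 and 6.95 in pre-hyperglycemia livers and 6.43 and 6.36 in BBDR.+/+ livers, and the difference was 0.55 ± 0.10 (SE, 1.47-fold, limma adjusted p = 0.04), while its brightest differed by 0.24 (adjusted p = 0.432). Top2a had a difference of 0.69 by its brighter and 0.43 by its other probe set (adjusted p = 0.159). Which probe set reports the full transcript is not settled by these data. Of the member genes, 17 lay below the median signal of all probe sets, 14 of them in G2 and mitosis, and 5 of these 17 passed before hyperglycemia against BBDR.+/+, beside 0.307% of all named genes in that lower range. In the upper range 10 of 28 passed, beside 1.03%.

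Genes of the same pathways outside the list were counted in the same way. For these lists and those below, the following shares of all named genes stand beside the counts. Before hyperglycemia against BBDR.+/+, 0.802% passed, with 0.584% as higher. After hyperglycemia against BBDR.+/+, 3.52% passed, with 2.29% as higher. For post- versus pre-hyperglycemia, 1.37% passed, with 0.668% as lower. Among 34 other mitosis genes, 3 rose and 0 fell before hyperglycemia against BBDR.+/+ (Stmn1, Spc25 and Ncapd2), with a median of 0.37. Stmn1, which destabilises microtubules, read 8.16 and 8.33 in post-hyperglycemia livers, 8.77 and 8.80 in pre-hyperglycemia livers and 7.60 and 7.60 in BBDR.+/+ livers, with a pre-hyperglycemia difference of 1.19 ± 0.11 (SE, 2.27-fold, limma adjusted p = 0.00105). Ncapd2, a condensin subunit, read 6.23 and 6.30 in post-hyperglycemia livers, 6.57 and 6.42 in pre-hyperglycemia livers and 5.59 and 5.81 in BBDR.+/+ livers, with 0.80 ± 0.11 (SE, 1.74-fold, limma adjusted p = 0.0126). Spc25, of the Ndc80 complex at the kinetochore, read 6.04 and 6.05 in post-hyperglycemia livers, 6.57 and 6.77 in pre-hyperglycemia livers and 5.97 and 5.89 in BBDR.+/+ livers, with 0.74 ± 0.11 (SE, 1.67-fold, limma adjusted p = 0.0138) before hyperglycemia and -0.62 ± 0.11 (SE, 0.649-fold, limma adjusted p = 0.0169) for post- minus pre-hyperglycemia. In these 3, pre-hyperglycemia arrays were the highest. After hyperglycemia 5 of the 34 rose against BBDR.+/+ (median 0.19), among them Stmn1 and Kif22, a chromosome motor, at 5.82 and 5.62 in post-hyperglycemia livers, 5.71 and 5.65 in pre-hyperglycemia livers and 5.11 and 5.18 in BBDR.+/+ livers. The post-hyperglycemia difference of Kif22 was 0.58 ± 0.11 (SE, 1.49-fold, limma adjusted p = 0.0132). Against pre-hyperglycemia 2 fell, Spc25 and Stmn1, with a median of -0.15 over the 34, and the difference of Stmn1 was -0.54 ± 0.11 (SE, 0.688-fold, limma adjusted p = 0.0279). For both genes this fall and the rise against BBDR.+/+ share the pre-hyperglycemia arrays.

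Among 24 other DNA replication genes 2 rose before hyperglycemia and 0 fell, with a median of 0.15. Prim1, the catalytic subunit of primase, read 6.77 and 6.94 in post-hyperglycemia livers, 7.75 and 7.65 in pre-hyperglycemia livers and 6.78 and 6.85 in BBDR.+/+ livers. The pre-hyperglycemia difference was 0.88 ± 0.11 (SE, 1.84-fold, limma adjusted p = 0.00522) against BBDR.+/+, and the post- minus pre-hyperglycemia difference was -0.84 ± 0.11 (SE, 0.558-fold, limma adjusted p = 0.00463). Hells, a chromatin remodeller of replicating cells, read 5.45 and 5.58 in post-hyperglycemia livers, 6.13 and 5.87 in pre-hyperglycemia livers and 5.07 and 4.89 in BBDR.+/+ livers, with 1.02 ± 0.12 (SE, 2.03-fold, limma adjusted p = 0.00504) before and 0.54 ± 0.12 (SE, 1.45-fold, limma adjusted p = 0.033) after hyperglycemia against BBDR.+/+. Prim1 was the 1 gene of the 24 that fell after hyperglycemia against pre-hyperglycemia. Post-hyperglycemia and BBDR.+/+ arrays overlapped for Prim1 and not for Hells.

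Of 15 inhibitors of the cycle 0 passed before hyperglycemia against BBDR.+/+, where without adjustment limma gave 5 as higher and 1 as lower. Cdkn1a encodes p21, which blocks cyclin-dependent kinases, and read 8.82 and 8.74 in post-hyperglycemia livers, 7.96 and 8.05 in pre-hyperglycemia livers and 8.05 and 7.92 in BBDR.+/+ livers. It rose after hyperglycemia by 0.79 ± 0.11 (SE, 1.73-fold, limma adjusted p = 0.00219) against BBDR.+/+ and by 0.77 ± 0.11 (SE, 1.71-fold, limma adjusted p = 0.00605) against pre-hyperglycemia, and pre-hyperglycemia and BBDR.+/+ arrays overlapped. Ccng2, cyclin G2, read 8.12 and 8.32 in post-hyperglycemia livers, 8.72 and 8.78 in pre-hyperglycemia livers and 8.38 and 8.25 in BBDR.+/+ livers, and post- minus pre-hyperglycemia was -0.52 ± 0.11 (SE, 0.695-fold, limma adjusted p = 0.0405). Gadd45a, a stress-induced inhibitor, read 7.65 and 7.82 in post-hyperglycemia livers, 7.66 and 7.80 in pre-hyperglycemia livers and 8.13 and 8.20 in BBDR.+/+ livers, and post-hyperglycemia minus BBDR.+/+ was -0.43 ± 0.11 (SE, 0.741-fold, limma adjusted p = 0.0481), with BBDR.+/+ highest. Of 10 E2F and MYB factors, E2f7, a repressor of the family, rose after hyperglycemia against BBDR.+/+. It read 5.07 and 4.98 in post-hyperglycemia livers, 4.90 and 4.73 in pre-hyperglycemia livers and 4.56 and 4.28 in BBDR.+/+ livers, with 0.61 ± 0.12 (SE, 1.52-fold, limma adjusted p = 0.0181), and 0 of the 10 passed in the other comparisons, where 1 had an unadjusted p under 0.05 before hyperglycemia and 0 between the BBDR.lyp/lyp groups.

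Whole liver holds several cell types, and in bulk RNA fewer cells of a type and less RNA per cell cannot be told apart. Of the hepatocyte markers, 0 of 8 passed in any comparison (in limma without adjustment, 1 was higher and 1 lower before hyperglycemia against BBDR.+/+, 0 after it, and 1 was higher between the BBDR.lyp/lyp groups), and their summed linear signal was 112451 to 113615 in post-hyperglycemia livers, 111658 to 112863 in pre-hyperglycemia livers and 112534 to 112655 in BBDR.+/+ livers. Alb gave the highest signal of every array, and the other markers lay between the 98.80 and 99.97 percentiles of signal. So near the ceiling a change could go unseen, and the sum does not measure hepatocyte content. Hnf4a, the dimmest, differed by -0.40 before hyperglycemia against BBDR.+/+ (limma adjusted p = 0.151). Markers of some other cells differed between the groups. Of 11 erythroid genes 10 had a positive difference before hyperglycemia against BBDR.+/+, beside 56.3% of all named genes. The 1 that rose was Alas2, the heme synthesis enzyme of red cell precursors. It read 8.11 and 8.11 in post-hyperglycemia livers, 8.41 and 8.46 in pre-hyperglycemia livers and 7.88 and 7.88 in BBDR.+/+ livers, with 0.56 ± 0.10 (SE, 1.47-fold, limma adjusted p = 0.0352). The summed erythroid signal was 5460 and 5751 in post-hyperglycemia livers, 6899 and 7655 in pre-hyperglycemia livers and 6219 and 6595 in BBDR.+/+ livers, most of it from the globin Hbb. Hbb read 12.22 and 12.30 in post-hyperglycemia livers, 12.57 and 12.73 in pre-hyperglycemia livers and 12.44 and 12.54 in BBDR.+/+ livers. The erythroid sum was lowest after hyperglycemia. The erythroid median difference from BBDR.+/+ was then -0.07, with 5 genes positive and 6 negative. For the division genes it was 0.22, with 35 of 45 positive, beside 59.3% of all named genes. Group means of Alas2 followed the pre-hyperglycemia, post-hyperglycemia, BBDR.+/+ order seen in 27 of 45 division genes. Those of Hbb followed pre-hyperglycemia, BBDR.+/+, post-hyperglycemia, as 8 of the 45 did. The part of red cell precursors in the division genes was not tested.

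S100a9 and S100a8, which neutrophils express strongly, were higher in both BBDR.lyp/lyp groups. S100a9 read 6.90 and 7.06 in post-hyperglycemia livers, 7.42 and 6.97 in pre-hyperglycemia livers and 5.58 and 5.47 in BBDR.+/+ livers, and S100a8 read 5.05 and 5.03 in post-hyperglycemia livers, 5.18 and 4.74 in pre-hyperglycemia livers and 3.73 and 3.77 in BBDR.+/+ livers. Their pre-hyperglycemia differences from BBDR.+/+ were 1.66 ± 0.15 (SE, 3.17-fold, limma adjusted p = 0.00105) and 1.21 ± 0.14 (SE, 2.32-fold, limma adjusted p = 0.00366), and these were the 2 of the 4 neutrophil genes measured that passed in each comparison with BBDR.+/+. The other 2, Camp and Lcn2, differed by 0.05 and -0.07 before hyperglycemia (adjusted p = 0.91 and 0.901) and by 0.04 and 0.11 after it (adjusted p = 0.884 and 0.72). The defining granulocyte precursor genes Mpo and Elane had no probe set of their own here. Of 8 macrophage genes, 3 rose after hyperglycemia against BBDR.+/+, led by Cd163 at 8.35 and 8.50 in post-hyperglycemia livers, 8.002 and 7.93 in pre-hyperglycemia livers and 7.82 and 7.56 in BBDR.+/+ livers. Its post-hyperglycemia minus BBDR.+/+ difference was 0.73 ± 0.12 (SE, 1.66-fold, limma adjusted p = 0.00598). All 8 had positive differences in both comparisons with BBDR.+/+ (beside 59.3% of all named genes after hyperglycemia), and their summed signal was 10804 to 11271 in post-hyperglycemia livers, 10330 to 10825 in pre-hyperglycemia livers and 8666 to 8813 in BBDR.+/+ livers. Of 10 endothelial and stellate cell genes, 1 rose before hyperglycemia, Col1a1, a fibrillar collagen, at 7.74 and 7.87 in post-hyperglycemia livers, 8.29 and 8.33 in pre-hyperglycemia livers and 7.72 and 7.70 in BBDR.+/+ livers. It differed by 0.60 ± 0.10 (SE, 1.52-fold, limma adjusted p = 0.0284) before hyperglycemia against BBDR.+/+, and by -0.51 ± 0.10 (SE, 0.702-fold, limma adjusted p = 0.031) for post- minus pre-hyperglycemia, where the collagen Col1a2 also fell (-0.62 ± 0.12 (SE, 0.652-fold, limma adjusted p = 0.0293)). After hyperglycemia against BBDR.+/+ 1 of the 10 rose, the endothelial adhesion gene Pecam1, with 0.49 ± 0.11 (SE, 1.41-fold, limma adjusted p = 0.034). Of 12 T cell genes 1 passed, Cd8b, lower after hyperglycemia against BBDR.+/+, with -0.45 ± 0.11 (SE, 0.73-fold, limma adjusted p = 0.0353). Of 6 B and plasma cell, 8 NK cell and 4 bile duct genes, 0 passed in any comparison, and without adjustment limma gave at most 3 of a list, all higher. The part of these cells in the division genes was not tested.

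**Figure D4:**
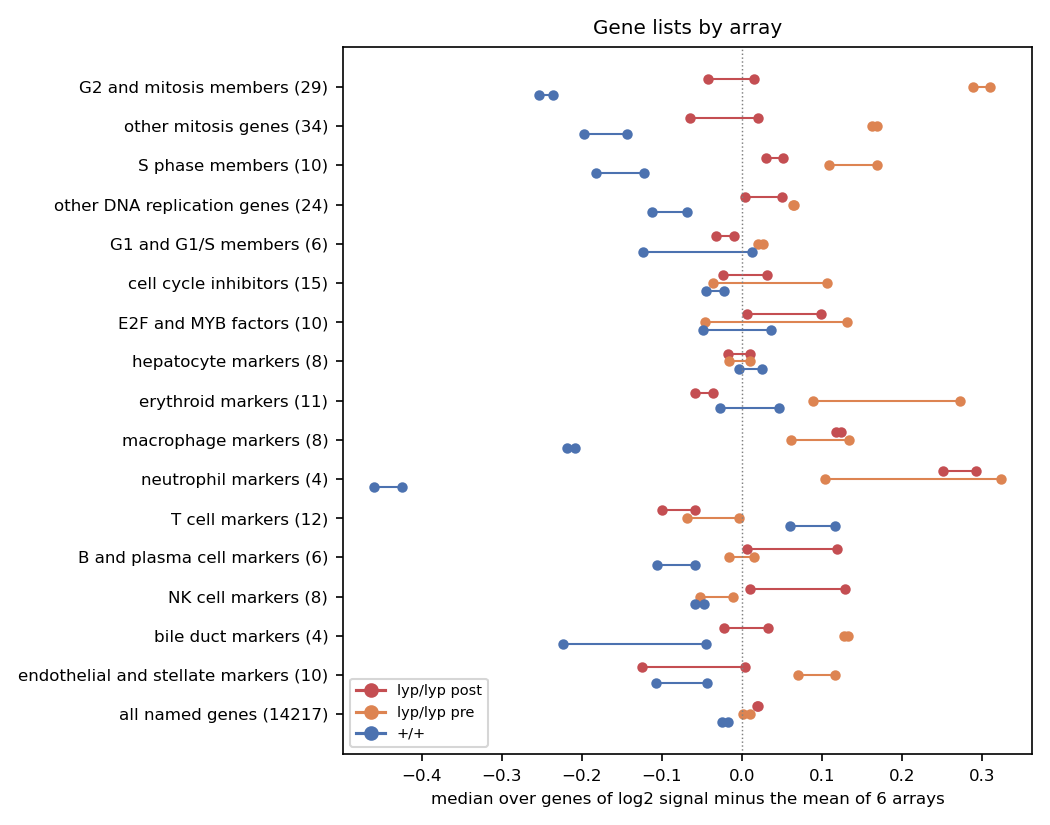
Median, over the genes of a list, of the log2 signal minus the mean of that gene on all arrays, for each array (points) and group (lines join the 2 arrays of a group). The number of genes is in brackets. The 3 groups separate in G2 and mitosis, in S phase and in the other mitosis genes, erythroid markers are highest before hyperglycemia, macrophage markers are lowest in BBDR.+/+, as is the neutrophil list, in which S100a8 and S100a9 passed the test and Camp and Lcn2 did not, and all named genes together lie near 0.

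The balance of 3′ and 5′ control probe sets moved with 1 group. The signal of the 3′ minus the 5′ probe set of beta-actin, on the log2 scale, was 2.11 and 2.04 in post-hyperglycemia arrays, 1.51 and 1.32 in pre-hyperglycemia arrays and 1.36 and 1.12 in BBDR.+/+ arrays, and for GAPDH it was 1.37 and 1.33 in post-hyperglycemia arrays, 0.67 and 0.55 in pre-hyperglycemia arrays and 0.72 and 0.44 in BBDR.+/+ arrays. Post-hyperglycemia arrays stood apart from both other groups, and pre-hyperglycemia and BBDR.+/+ arrays overlapped. Its part in the post-hyperglycemia differences was not tested. The median log2 signal of the arrays lay between 5.90 and 5.94, and replicate arrays correlated at 0.996 to 0.997 over all probe sets.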

How the data were processed

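The arrays were processed by the authors before deposit: per the labels and the methods, quantification was done in Affymetrix Expression Console and normalization in Partek Genomic Suite, with version and algorithm not given in the sources used. The deposited values are log2 signals, 1 per probe set and array. Rats were fasted before collection per the labels and had food at all times per the methods.

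Affymetrix controls (57) were set aside, which left 31042 probe sets without a filter on signal. Symbols came from the annotation of the array: 20826 probe sets had 1 symbol, 436 several and 9780 none. limma (version 3.58.1, R 4.3.3) was fitted with 1 mean per group over all 6 arrays (3 residual and 7.70 prior degrees of freedom), and p-values were adjusted over all probe sets by Benjamini-Hochberg at 0.05. The methods' t-test was an alternative. Rank product was not used here, since it resamples over genes. The number of arrays limits the precision. Code was tested on simulated arrays, with log2 changes of 0.6 or 1 set in pre-hyperglycemia. Against BBDR.+/+ the test recovered 17.6% of the changes of 0.6 and 65% of those of 1. A gene that did not pass can thus still differ.

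Values per array are given for members that passed in any comparison and for the 4 of each role with the smallest moderated F p, and for up to 4 passing genes of each other list. The members and lists were chosen with earlier results of these data known. Counts, medians and motif searches were made with Python 3.11.15, pandas 2.3.3 and numpy 2.4.6, and figures with matplotlib 3.10.9.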

Additional observations from a re-analysis of the deposited data

How the results depend on the processing

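The member probe sets that passed (6 for post-hyperglycemia versus BBDR.+/+, 5 for post- versus pre-hyperglycemia and 18 for pre-hyperglycemia versus BBDR.+/+) kept their sign under each of the 15 alternatives that gave them a value (6 left out 1 array). For most alternatives this could not have come out otherwise. Those that change only the test, or which probe sets or groups are fitted, leave a difference as it is. The compared arrays did not overlap for any passing probe set, so leaving 1 out could not turn its sign. Of the member probe sets that did not pass, 18 of 57, 13 of 58 and 9 of 45, in the same order, changed sign when some array was left out, Plk1 among them. The methods' t-test after adjustment passed 0 member probe sets in each comparison. With the replicate number as a block, 10 member probe sets passed for post-hyperglycemia versus BBDR.+/+, and 9 (5 genes) for post- versus pre-hyperglycemia. Its count moved less for pre-hyperglycemia versus BBDR.+/+ (21 probe sets). Only the number is shared: same-numbered arrays deviated with r of 0.26, 0.11 and 0.14 between groups. With an intensity trend 11 probe sets (10 genes) passed after hyperglycemia against BBDR.+/+. Averaging the probe sets of each gene gave 10 genes there and 6 for post- versus pre-hyperglycemia. For pre-hyperglycemia versus BBDR.+/+, averaging kept 2 calls of genes with several probe sets and lost 4. The G2 and mitosis medians with averaging were 0.17 after and 0.48 before hyperglycemia against BBDR.+/+. In the top 60% of probe sets by mean, 5 genes passed for post- versus pre-hyperglycemia, and the G2 and mitosis medians were 0.24, -0.35 and 0.49 (post-hyperglycemia versus BBDR.+/+, post- versus pre-hyperglycemia, pre-hyperglycemia versus BBDR.+/+). Centred on 48 ribosomal protein probe sets they were 0.30, -0.19 and 0.53, and the S phase medians were -0.067 for post- versus pre-hyperglycemia and 0.23 for pre-hyperglycemia versus BBDR.+/+. With this centring, 12 of the 18 calls for pre-hyperglycemia versus BBDR.+/+ held and 6 did not. The cause of these shifts was not tested.

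With 1 array left out, the lone array of a group is assumed to vary like the others. Passing probe sets then numbered 2 to 7 for post-hyperglycemia versus BBDR.+/+ (genes 2 to 7), 1 to 4 for post- versus pre-hyperglycemia (genes 0 to 2) and 1 to 15 for pre-hyperglycemia versus BBDR.+/+ (genes 1 to 13). Of the calls, 1 of 6, 1 of 5 and 0 of 18 held with any array left out. The S phase medians ran from 0.17 to 0.20, from -0.16 to -0.12 and from 0.26 to 0.34, and the G2 and mitosis medians from 0.21 to 0.30, from -0.33 to -0.21 and from 0.49 to 0.59, in the same order of comparisons.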
